A study of Mus musculus with 4 samples.

Results

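The genes described here are 49 mouse genes of DNA replication origins and forks, taken by symbol from a list of licensing, helicase, polymerase, clamp, chromatin assembly, checkpoint and repair genes. The list was drawn up with earlier results of these data known. All 49 were found among the 15466 genes of the deposited table. Transcripts were measured by poly(A) mRNA sequencing of splenic CD8 T cells from C57BL/6 mice. IL-15C naive cells and IL-15C virtual memory (VM) cells came from mice that had received IL-15C, in which IL-15 is bound to its receptor chain IL-15Ra, 4 times a week. Untreated naive and untreated VM cells came from wild-type mice given the buffer PBS. Naive cells were sorted as CD44- CD49d-, and VM cells, which are memory-type CD8 T cells that form without a known encounter with antigen, as CD44hi CD49d-. Each of the 4 groups is represented by 1 library, titled with n=3. This was read as 3 mice, and it is not stated whether their cells were pooled.

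Replication starts in 2 separate steps, which keeps each stretch of DNA from being copied more than once in a cycle. In licensing, the origin recognition complex (ORC), Cdc6 and Cdt1 load the ring-shaped MCM2-7 helicase onto DNA while it is inactive. In firing, kinases and further factors turn the loaded ring into the active helicase, made of Cdc45, MCM2-7 and the GINS complex, and the polymerases, the sliding clamp and the clamp loader follow. Resting naive T cells do not replicate their DNA, and the cytokine IL-15 drives CD8 T cells, memory-type cells above all, into division.

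The libraries held 43862816 to 48950547 reads assigned to genes. Levels are given as CPM, read counts scaled to library size with TMM factors, and levels of different genes are set side by side only in the authors' TPM, which allows for transcript length. With 1 library per group there was no replicate and no test across mice. To be counted as higher or lower, a gene had to differ by 2-fold or more with its whole 95% interval beyond 2-fold. This interval covers counting error only. In such bulk samples a larger fraction of cells with a transcript and more transcript per cell cannot be told apart. Cd44, a gene of the sort gate, stood at 243 CPM in IL-15C VM and 17.2 CPM in IL-15C naive cells, and at 232 CPM in untreated VM and 8.65 CPM in untreated naive cells, the order that the sort labels give. Itga4, the gene of CD49d, for which all groups were gated negative, was transcribed in each. It stood at 290 CPM in IL-15C naive and 614 CPM in untreated naive cells, and at 50.9 CPM in IL-15C VM and 351 CPM in untreated VM cells, and was counted as lower in both IL-15C comparisons and in IL-15C VM against IL-15C naive cells.

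The replication genes were more abundant after IL-15C in naive cells. In IL-15C naive against untreated naive cells, 41 of 49 were counted as higher and none as lower, where 4.95% of the 12174 genes compared were higher and 1.99% lower. The median log2 ratio of the 49 genes was 2.02, a fold of 4.05, beside 0.02 over all genes compared. The members ranged between 0.33 for Orc2 and 5.61 for Cdc6. All 49 counting intervals lay above 0, where those of 4979 of the 12174 genes compared did so. Orc2, Cdt1, Gins4, Pola2, Pold2, Pole2, Rfc1 and Rpa1 did not pass the 2-fold limit.

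The replication genes were also more abundant after IL-15C in VM cells. In IL-15C VM against untreated VM cells, 46 of 49 were counted as higher and none as lower, where 8.6% of the 12370 genes compared were higher and 8.83% lower. Their median log2 ratio was 2.13, beside -0.04 over all genes, and the range ran between 0.21 for Orc2 and 3.90 for Clspn. Orc2, Gins4 and Rfc1 did not pass the limit.

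Between the subsets, the differences were smaller and also ran toward VM cells. In untreated VM against untreated naive cells, 11 of 49 were counted as higher and none as lower, beside 4.81% and 1.11% of the 12259 genes compared, with a median log2 ratio of 0.53. In IL-15C VM against IL-15C naive cells, 9 of 49 were counted as higher and none as lower, beside 6.52% and 5.91% of the 12206 genes compared, with a median of 0.73. The 11 were Orc1, Cdc6, Gmnn, Mcm10, Cdc45, Gins2, Lig1, Chaf1a, Clspn, Brca1 and Exo1. The 9 were Orc1, Mcm2, Mcm3, Mcm5, Mcm10, Pole, Rfc5, Chaf1a and Brca2. These 4 comparisons share libraries in pairs, so they are not independent of each other.

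In naive cells the 49 genes together held 0.489% of reads after IL-15C and 0.154% without it. In VM cells they held 0.799% after IL-15C and 0.203% without it. The exact binomial 95% intervals of these shares ran 0.487% to 0.491%, 0.153% to 0.155%, 0.797% to 0.802% and 0.202% to 0.205% in the same order. For 41 of the 49 genes the level stood in the order untreated naive, untreated VM, IL-15C naive and IL-15C VM, with the counting interval of each step above 0, where 8.88% of 12617 genes did so. The exceptions were Orc2, Cdc7, Gins3, Gins4, Pola2, Pold3, Pole2 and Timeless. IL-15C VM was above each of the other libraries for 47 genes, all except Orc2 and Cdc7, where 28.6% of all genes were highest there.

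**Figure D1:**
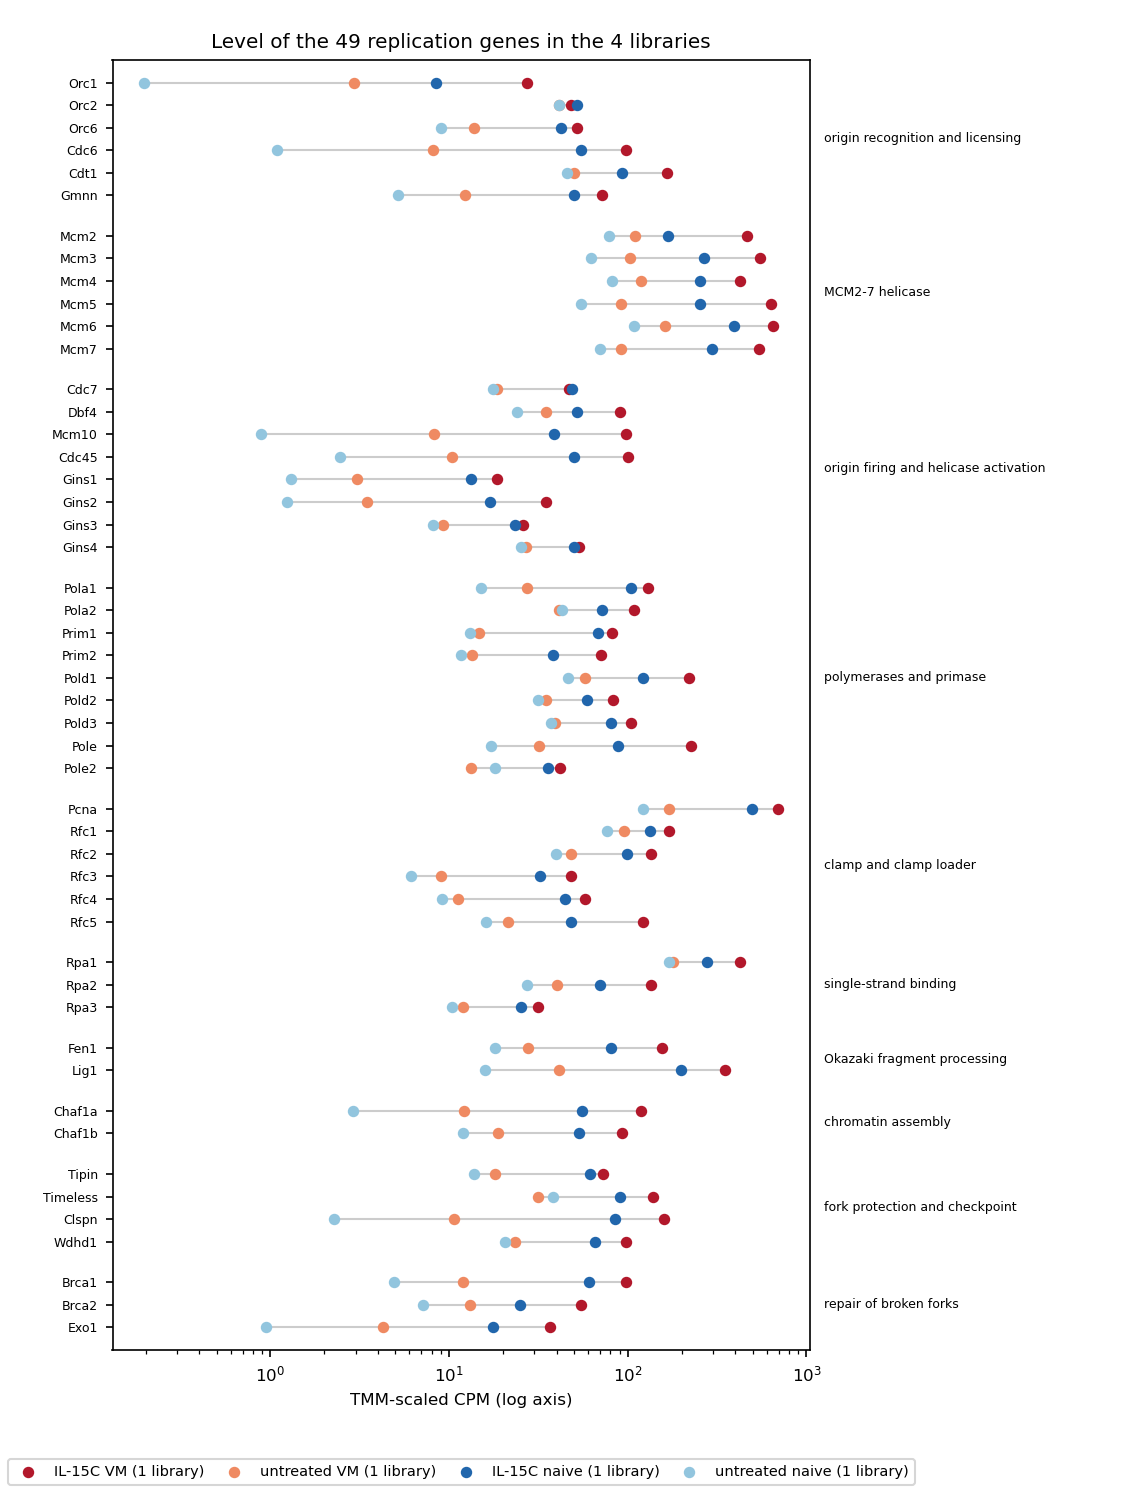
TMM-scaled CPM of each of the 49 genes on a log axis, 1 point per library, grouped by role. IL-15C VM cells hold the highest point for all genes except Orc2 and Cdc7, and Orc1, Mcm10, Cdc6 and Clspn span the widest ranges.

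Among the 6 genes of origin recognition and licensing, 5 were counted as higher in IL-15C VM cells and 4 in IL-15C naive cells. Cdc6, the loader that joins ORC to bring in the helicase (chromosome 11, 98907709 to 98923942), stood at 54.9 CPM in IL-15C naive and 1.08 CPM in untreated naive cells. Its log2 ratio there was 5.61, with a 95% interval of 5.28 to 6.08. It stood at 97.6 CPM in IL-15C VM and 8.15 CPM in untreated VM cells, a log2 ratio of 3.58. Both IL-15C libraries were above both untreated libraries. Orc1, the largest ORC subunit and the one whose protein is made and destroyed with the cycle in human cells (chromosome 4, 108575705 to 108616030), stood at 8.45 CPM in IL-15C naive and 0.197 CPM in untreated naive cells. Its log2 ratio of 5.14 had a wide interval of 4.53 to 6.50, since untreated naive cells gave it 10 reads. In VM cells Orc1 stood at 27.2 CPM after IL-15C and 2.95 CPM without it. Exons of Gm12743 on the opposite strand cover 10.8% of the exon bases of Orc1.

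Orc2, another ORC subunit (chromosome 1, 58462771 to 58505113), was nearly level across the study. It stood at 51.7 CPM in IL-15C naive and 41.0 CPM in untreated naive cells, and at 47.9 CPM in IL-15C VM and 41.4 CPM in untreated VM cells. On the opposite strand, exons of Nif3l1 cover 29.8% of the exon bases of Orc2, and the log2 ratio of Nif3l1 was 0.47 in VM and 0.35 in naive cells. The sources used here do not say whether reads were counted by strand. The third ORC subunit of the list, Orc6, had log2 ratios of 1.92 in VM and 2.23 in naive cells, so the subunits of this complex did not move alike.

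Cdt1, which works with Cdc6 in loading the helicase, stood at 93.1 CPM in IL-15C naive and 45.9 CPM in untreated naive cells, and at 166 CPM in IL-15C VM and 49.997 CPM in untreated VM cells. Its fold was 3.32 in VM cells and 2.03 in naive cells, where the interval reached below 2-fold. Gmnn, which encodes geminin, the inhibitor of Cdt1, moved more than Cdt1 itself, with log2 ratios of 2.53 in VM and 3.26 in naive cells. In TPM, Gmnn was at 86.6 beside 71.9 for Cdt1 in IL-15C naive cells, and at 10.5 beside 41.7 in untreated naive cells. In VM cells Gmnn was at 126 TPM beside 131 for Cdt1 after IL-15C, and at 24.2 beside 43.8 without it. Geminin was thus the less abundant transcript of the pair in both untreated libraries, while in IL-15C cells the pair stood within a narrow range. Gmnn was named for this contrast after its values were seen.

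The MCM2-7 genes, which encode the 6 subunits of the helicase ring, were all counted as higher in both IL-15C comparisons. Their log2 ratios lay between 1.84 for Mcm4 and 2.79 for Mcm5 in VM cells, and between 1.11 for Mcm2 and 2.21 for Mcm5 in naive cells. Mcm2 stood at 168 CPM in IL-15C naive and 78.0 CPM in untreated naive cells, and at 463 CPM in IL-15C VM and 110 CPM in untreated VM cells. Mcm5 stood at 255 CPM in IL-15C naive and 54.9 CPM in untreated naive cells, and at 633 CPM in IL-15C VM and 91.7 CPM in untreated VM cells. For both genes the IL-15C VM library stood apart at the top.

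Mcm3 stood at 268 CPM in IL-15C naive and 62.4 CPM in untreated naive cells, and at 548 CPM in IL-15C VM and 103 CPM in untreated VM cells. Mcm4 stood at 254 CPM in IL-15C naive and 82.0 CPM in untreated naive cells, and at 425 CPM in IL-15C VM and 119 CPM in untreated VM cells. Each library kept its place in the order for this pair as well. Mcm6, the most abundant of the 6 in TPM in both untreated libraries, stood at 395 CPM in IL-15C naive and 109 CPM in untreated naive cells, and at 653 CPM in IL-15C VM and 162 CPM in untreated VM cells. Mcm7 stood at 296 CPM in IL-15C naive and 70.0 CPM in untreated naive cells, and at 540 CPM in IL-15C VM and 91.6 CPM in untreated VM cells. The helicase genes alone took 33.3% of the reads of the 49 genes in IL-15C naive and 30.7% in untreated naive cells, and 38.6% in IL-15C VM and 34.0% in untreated VM cells.

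**Figure D2:**
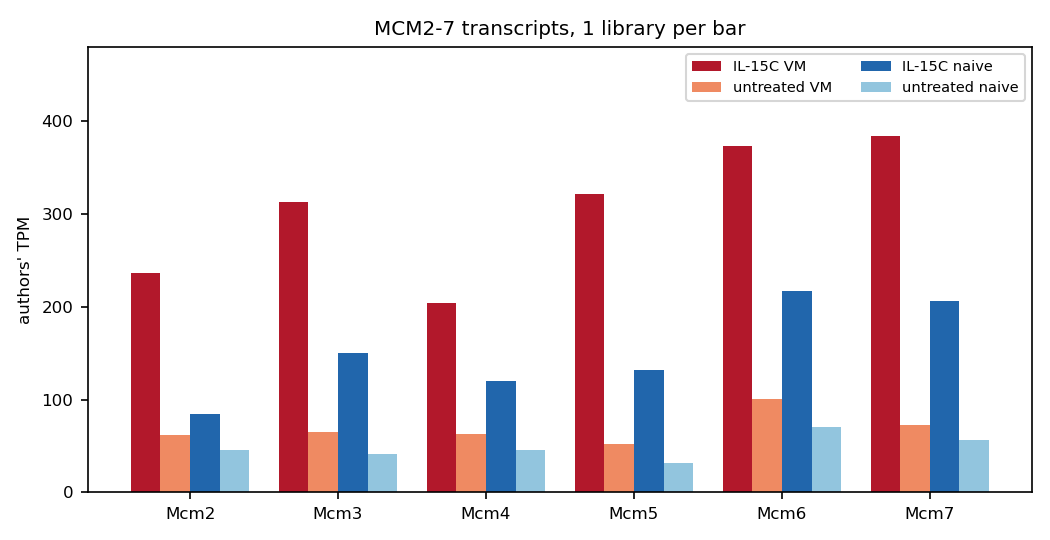
Bars give the authors' TPM of the MCM2-7 transcripts, 1 library per bar. Mcm7 reaches 384 TPM in IL-15C VM cells, and for each gene the bars of the IL-15C libraries stand above those of both untreated libraries.

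Promoter stretches of 4 ring genes and Mcm10 are shown because they share the Mcm name and hold different letters. Mcm10 is not a subunit of the ring and is grouped here with origin firing. Mcm4 is not among the genes with a window, and Mcm7 is not printed because its windows left no stretch under the rule given next. E2F transcription factors are known to control many genes of S phase, and NF-Y binds the CCAAT box. RefSeq windows on GRCm38.p6, 250 bases before to 50 after an annotated start, were found for 39 of the 49 genes. The stretches below are the parts of these windows outside the RefSeq gene and outside GENCODE exons, written 5' to 3' on the gene's strand. Capitals mark the E2F words TTTCCCGC, TTTGGCGC, TTTCGCGC and TTTGCCGC and the CCAAT box, each on either strand, and E2F words in capitals may overlap.
Mcm6 (chr1:128359706-128359955, minus strand): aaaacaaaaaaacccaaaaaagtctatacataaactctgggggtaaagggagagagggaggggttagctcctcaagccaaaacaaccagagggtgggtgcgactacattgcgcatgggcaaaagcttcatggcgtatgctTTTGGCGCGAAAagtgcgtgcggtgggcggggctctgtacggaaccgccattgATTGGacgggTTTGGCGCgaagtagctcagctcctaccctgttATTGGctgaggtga
Mcm5 (chr8:75109259-75109467, plus strand): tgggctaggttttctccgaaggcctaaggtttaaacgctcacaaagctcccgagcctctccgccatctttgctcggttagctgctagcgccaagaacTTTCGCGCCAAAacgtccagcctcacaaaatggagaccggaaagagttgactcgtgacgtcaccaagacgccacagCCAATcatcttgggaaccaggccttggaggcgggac
Mcm3 (chr1:20820313-20820562, minus strand): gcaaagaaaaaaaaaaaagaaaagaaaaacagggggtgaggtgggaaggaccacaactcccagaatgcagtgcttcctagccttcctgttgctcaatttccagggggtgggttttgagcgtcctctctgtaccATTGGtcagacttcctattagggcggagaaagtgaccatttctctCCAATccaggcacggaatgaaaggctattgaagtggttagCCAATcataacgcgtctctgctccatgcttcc
Mcm2 (chr6:88898781-88899030, minus strand): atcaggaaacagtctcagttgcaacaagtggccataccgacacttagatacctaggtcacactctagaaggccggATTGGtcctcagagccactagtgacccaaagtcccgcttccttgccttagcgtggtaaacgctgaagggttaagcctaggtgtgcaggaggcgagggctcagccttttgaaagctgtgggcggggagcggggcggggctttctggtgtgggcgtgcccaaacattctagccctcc
Mcm10 (chr2:5012792-5013041, minus strand): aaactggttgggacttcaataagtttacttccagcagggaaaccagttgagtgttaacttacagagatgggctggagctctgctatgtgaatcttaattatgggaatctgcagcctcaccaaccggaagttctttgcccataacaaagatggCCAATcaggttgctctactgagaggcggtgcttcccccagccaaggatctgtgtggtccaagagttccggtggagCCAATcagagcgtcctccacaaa

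Mcm6 and Mcm5 hold E2F words before the start, Mcm3 holds 2 after it, outside the stretch shown, and neither Mcm2 nor Mcm10 has one in its window. All 5 hold a CCAAT box. Mcm7, not shown, holds 2 E2F words in 1 of its windows and none in the other. Over the 39 genes with a window, 16 (41.0%) held an E2F word, beside 2.61% of 27025 genes with a RefSeq window and 3.29% of 17492 protein-coding genes. CCAAT was in the windows of 23 (59.0%), beside 42.3% of protein-coding genes, and TTTGAA, a word of the cell cycle element CHR, in those of 7 (17.9%), beside 18.5%. The median log2 ratio in IL-15C naive cells was 2.09 for the 16 genes with an E2F word and 1.58 for the 23 without, with wide and overlapping ranges of 0.99 to 5.61 and 0.33 to 5.38. A word in these windows is a match of letters and not a measured binding site.

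Of the 8 genes of origin firing, 7 were counted as higher in each IL-15C comparison, and the exception in both was Gins4. Mcm10, which helps to turn the loaded ring into a moving helicase, stood at 38.5 CPM in IL-15C naive and 0.885 CPM in untreated naive cells, a log2 ratio of 5.38 (5.02 to 5.91). In VM cells it stood at 98.3 CPM after IL-15C and 8.21 CPM without it, a log2 ratio of 3.57. Cdc45, which rides with the helicase, had log2 ratios of 3.28 in VM and 4.34 in naive cells. Of the kinase pair that triggers firing, the catalytic subunit Cdc7 had log2 ratios of 1.34 and 1.48, and its activator Dbf4 had 1.39 and 1.11, in VM and naive cells. Cdc7 did not differ between the subsets beyond counting error, at -0.06 (-0.15 to 0.02) in IL-15C cells, whereas Dbf4 was at 0.81.

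The GINS complex has 4 subunits in equal number, but its transcripts were unequal. Gins4 stood at 50.2 CPM in IL-15C naive and 25.3 CPM in untreated naive cells, and at 53.4 CPM in IL-15C VM and 26.9 CPM in untreated VM cells. Gins1 and Gins2 had log2 ratios of 3.30 and 3.73 in naive cells, beside 0.99 for Gins4 and 1.53 for Gins3. The highest GINS subunit exceeded the lowest 3.78-fold in TPM in IL-15C naive and 15.8-fold in untreated naive cells, and 3.64-fold in IL-15C VM and 7.07-fold in untreated VM cells. Exons of Gse1 on the opposite strand cover 67.3% of the exon bases of Gins2. Gse1 itself had a log2 ratio of -0.41 in VM and -0.76 in naive cells, opposite in sign to that of Gins2.

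The spread was also narrower in IL-15C naive than in untreated naive cells in other complexes. The ratio of highest to lowest subunit in TPM was 2.30 in IL-15C naive and 6.27 in untreated naive cells for the 4 genes of DNA polymerase alpha and primase. For the pair of polymerase epsilon subunits it was 1.72 in IL-15C naive and 4.46 in untreated naive cells. The clamp loader RFC had 2.48 in IL-15C naive and 5.20 in untreated naive cells. In VM cells the ratio was 2.21 after IL-15C and 3.37 without it for polymerase alpha and primase, 1.26 and 1.76 for polymerase epsilon, and 2.51 and 4.24 for RFC. It was slightly wider after IL-15C in VM cells for the polymerase delta subunits, at 1.88 in IL-15C VM and 1.77 in untreated VM cells, and for Cdc7 and Dbf4, at 2.36 in IL-15C VM and 2.31 in untreated VM cells. The MCM2-7 ring did not narrow in naive cells: its ratio was 2.57 in IL-15C naive and 2.21 in untreated naive cells, and 1.88 in IL-15C VM and 1.91 in untreated VM cells.

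Of the 9 polymerase and primase genes, 9 were counted as higher in IL-15C VM cells and 6 in IL-15C naive cells. Pola1, the catalytic subunit of the polymerase that extends the RNA primer, stood at 105 CPM in IL-15C naive and 15.2 CPM in untreated naive cells, and at 130 CPM in IL-15C VM and 27.2 CPM in untreated VM cells. Its accessory subunit Pola2 stood at 71.5 CPM in IL-15C naive and 42.9 CPM in untreated naive cells, and at 109 CPM in IL-15C VM and 41.4 CPM in untreated VM cells. Pola1 was thus the more responsive of the pair in both subsets. Prim2, the large primase subunit, stood at 38.2 CPM in IL-15C naive and 11.7 CPM in untreated naive cells, and at 70.6 CPM in IL-15C VM and 13.4 CPM in untreated VM cells. The lagging-strand polymerase delta genes Pold1, Pold2 and Pold3 had log2 ratios of 1.93, 1.24 and 1.40 in VM cells and 1.40, 0.91 and 1.11 in naive cells. Pole, the catalytic subunit of the leading-strand polymerase, had 2.84 in VM and 2.36 in naive cells, more than its partner Pole2 with 1.65 and 0.99.

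**Figure D3:**
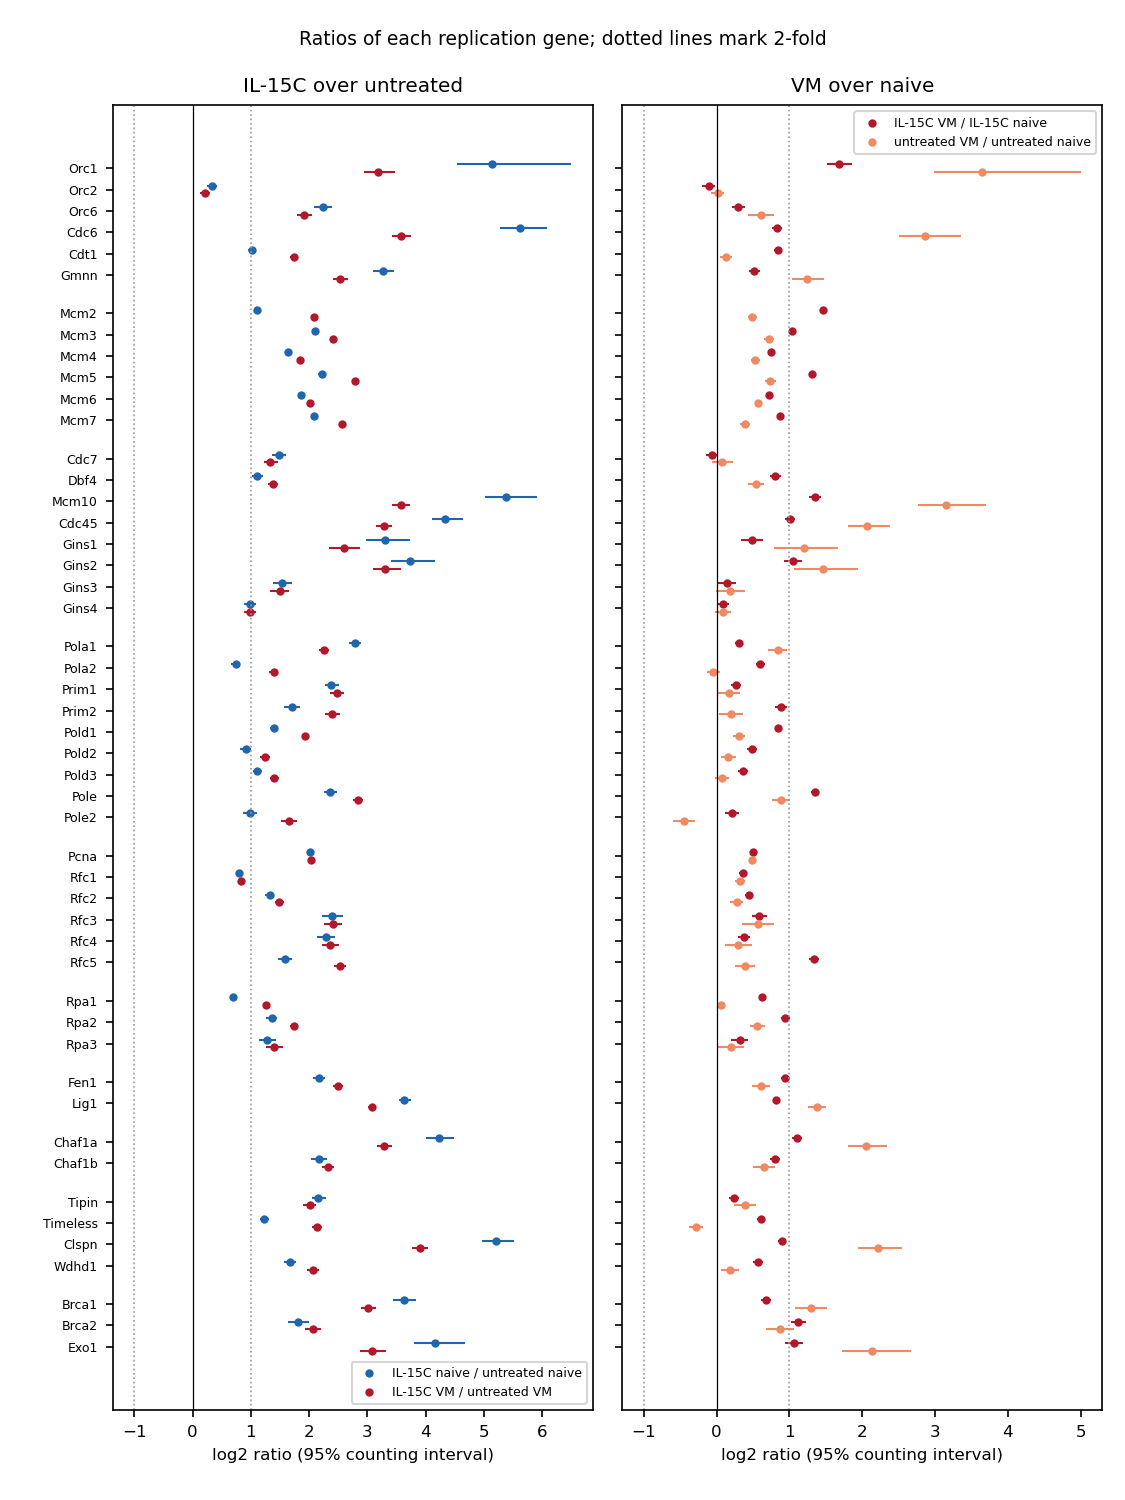
Log2 ratios of the 49 genes with 95% counting intervals, IL-15C over untreated on the left and VM over naive on the right, with dotted lines at 2-fold. On the left all points lie above 0, and on the right most lie between 0 and the 2-fold line, with Orc1, Mcm10 and Cdc6 farthest out in untreated cells.

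Pcna, which encodes the sliding clamp that holds polymerases on DNA (chromosome 2, 132249286 to 132253180), was the most abundant of the 49 transcripts in each library. It reached 662 TPM in IL-15C naive and 192 TPM in untreated naive cells, and 952 TPM in IL-15C VM and 260 TPM in untreated VM cells. Its log2 ratio was 2.03 in VM and 2.02 in naive cells, and the difference of the 2 responses was 0.01 (-0.05 to 0.06). The annotation names 2 Pcna pseudogenes, Pcna-ps1 and Pcna-ps2, so some reads of this gene may be shared with copies. Pcna was singled out after its values were seen.

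The clamp loader opens this ring and closes it around DNA, and 5 of the 6 clamp and loader genes were counted as higher in each IL-15C comparison. Rfc3 stood at 32.1 CPM in IL-15C naive and 6.09 CPM in untreated naive cells, and at 48.2 CPM in IL-15C VM and 9.06 CPM in untreated VM cells. Rfc1, the large subunit, stood at 133 CPM in IL-15C naive and 76.1 CPM in untreated naive cells, and at 170 CPM in IL-15C VM and 95.1 CPM in untreated VM cells. Rfc1 was the gene below the limit both times. Rfc5 stood at 48.3 CPM in IL-15C naive and 16.2 CPM in untreated naive cells, and at 122 CPM in IL-15C VM and 21.2 CPM in untreated VM cells. Its exon bases are overlapped to 10.7% by Wsb2 on the opposite strand, whose own log2 ratio was 0.02 in VM and -0.27 in naive cells. Opposite-strand exons also overlap Rfc2, to 15.1% by Lat2, and Rfc4, to 12.7% by Eif4a2. The log2 ratio of Lat2 was -0.58 in VM and -0.70 in naive cells, and that of Eif4a2 was -1.75 and -0.08.

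RPA coats the single-stranded DNA that the helicase exposes, and it also serves repair and recombination. Rpa1, the second most abundant of the 49 in untreated cells, stood at 277 CPM in IL-15C naive and 170 CPM in untreated naive cells, and at 426 CPM in IL-15C VM and 178 CPM in untreated VM cells. Rpa2 stood at 69.7 CPM in IL-15C naive and 27.2 CPM in untreated naive cells, and at 134 CPM in IL-15C VM and 40.2 CPM in untreated VM cells. Rpa1 passed the limit in VM but not in naive cells, and Rpa2 and Rpa3 passed it in both.

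The enzymes that finish Okazaki fragments, the short pieces of the lagging strand, were counted as higher in both comparisons. Fen1, the flap endonuclease, stood at 80.6 CPM in IL-15C naive and 18.0 CPM in untreated naive cells, and at 155 CPM in IL-15C VM and 27.5 CPM in untreated VM cells. Lig1, the ligase that seals the fragments, stood at 199 CPM in IL-15C naive and 15.9 CPM in untreated naive cells, and at 348 CPM in IL-15C VM and 41.4 CPM in untreated VM cells. Lig1 moved more, with log2 ratios of 3.07 and 3.64 beside 2.49 and 2.16 for Fen1, in VM and naive cells. The predicted gene Gm10143 on the opposite strand covers 78.8% of the exon bases of Fen1.

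Chaf1a and Chaf1b encode subunits of CAF-1, which places histones on newly copied DNA. Chaf1a stood at 55.1 CPM in IL-15C naive and 2.91 CPM in untreated naive cells, and at 119 CPM in IL-15C VM and 12.2 CPM in untreated VM cells. Chaf1b stood at 53.5 CPM in IL-15C naive and 11.9 CPM in untreated naive cells, and at 93.4 CPM in IL-15C VM and 18.7 CPM in untreated VM cells. Chaf1b exceeded Chaf1a in TPM by 1.68-fold in IL-15C naive and 7.11-fold in untreated naive cells. Exons of Ubxn6 on the opposite strand cover 52.5% of those of Chaf1a, and the log2 ratio of Ubxn6 was -0.44 in VM and 0.25 in naive cells.

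The 4 genes of fork protection were counted as higher in both IL-15C comparisons. Clspn encodes claspin, which passes the stalled-fork signal to the kinase Chk1 (chromosome 4, 126556957 to 126594533), and stood at 85.3 CPM in IL-15C naive and 2.26 CPM in untreated naive cells, and at 159 CPM in IL-15C VM and 10.6 CPM in untreated VM cells. Timeless, which forms a complex with Tipin at the fork, stood at 89.9 CPM in IL-15C naive and 38.2 CPM in untreated naive cells, and at 138 CPM in IL-15C VM and 31.4 CPM in untreated VM cells. Clspn had log2 ratios of 3.90 and 5.21 in VM and naive cells, and Timeless had 2.13 and 1.23. Tipin, the partner of Timeless, had 2.01 and 2.16, and Wdhd1, which links the helicase to polymerase alpha, had 2.06 and 1.67.

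The 3 genes for repair of broken forks were counted as higher in both as well. Exo1, a nuclease that trims DNA ends, stood at 17.6 CPM in IL-15C naive and 0.944 CPM in untreated naive cells, and at 36.7 CPM in IL-15C VM and 4.29 CPM in untreated VM cells. Brca2, which acts in repair of DNA breaks by recombination, stood at 25.0 CPM in IL-15C naive and 7.10 CPM in untreated naive cells, and at 54.4 CPM in IL-15C VM and 13.0 CPM in untreated VM cells. Brca1, which acts before Brca2 in this repair, had log2 ratios of 3.01 in VM and 3.62 in naive cells. In TPM, Brca2 was the lowest of the 49 in both IL-15C libraries, at 8.65 in IL-15C VM and 3.95 in IL-15C naive cells.

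Genes that were scarce in untreated naive cells had the larger ratios. The 12 genes under 5 TPM there, among them Orc1, Cdc6, Mcm10, Cdc45, Chaf1a, Clspn and Exo1, had median log2 ratios of 3.23 in VM and 4.19 in naive cells. The 17 genes between 5 and 20 TPM had medians of 2.32 and 2.16. The 20 genes at 20 TPM or more, which include all of MCM2-7, Pcna and the RPA genes, had medians of 1.69 and 1.20. These limits were chosen after the values were seen. Across the 49 genes, Pearson's r between log TPM in the untreated library and the log2 ratio was -0.55 in VM cells (Spearman's rho -0.54) and -0.83 in naive cells (rho -0.74). The untreated library enters both measures, so counting error alone pushes such an r below 0. With the level taken from the other subset's untreated library, which the ratio does not contain, r was -0.69 in VM and -0.67 in naive cells. Genes are not independent replicates, and these values are a description.

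**Figure D4:**
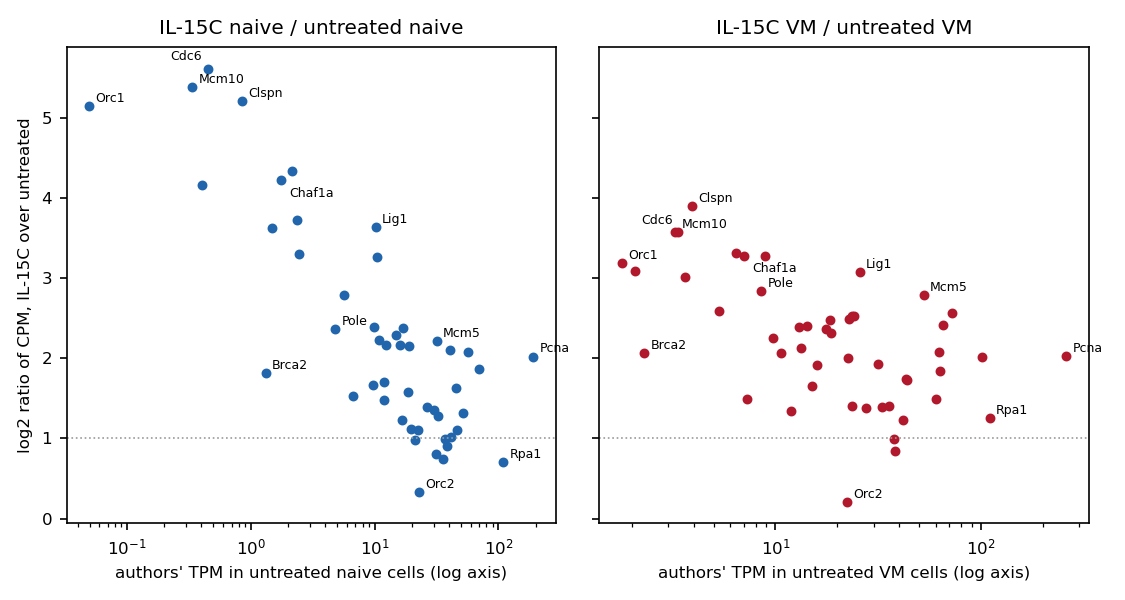
Log2 ratio of CPM, IL-15C over untreated, against the authors' TPM in the untreated library of the same subset (log axis), 1 point per gene, with a dotted line at 2-fold. In naive cells Cdc6, Mcm10, Clspn and Orc1 lie above a log2 ratio of 5 at under 1 TPM, while Rpa1 and Orc2 lie under the line.

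Among these scarce genes, many had a smaller response in VM than in naive cells. In the log2 response of VM minus that of naive cells, no gene passed the 4-fold limit set for this difference in either direction, where 0.0634% of 12617 genes were above it and 0.587% below. The median over the 49 was 0.12, beside -0.07 over all genes. Counting intervals lay above 0 for 23 of the 49 genes and below 0 for 14. Over the 12617 genes compared they lay above 0 for 3816 and below 0 for 4959. The lowest values were -2.03 for Cdc6 (-2.50 to -1.67), -1.96 for Orc1, -1.80 for Mcm10, -1.31 for Clspn and -1.07 for Exo1. The highest were 0.97 for Mcm2 (0.90 to 1.04), 0.95 for Rfc5, 0.90 for Timeless, 0.71 for Cdt1 and 0.69 for Prim2. The 5 lowest genes were all under 5 TPM in untreated naive cells, and each was counted as higher in untreated VM than in untreated naive cells, with log2 ratios between 2.13 for Exo1 and 3.64 for Orc1. The median difference was -1.002 for the 12 genes under 5 TPM in untreated naive cells, 0.08 for the 17 between 5 and 20 TPM and 0.32 for the 20 above. The untreated libraries enter this difference, so a low level in untreated naive cells, or a high ratio of untreated VM over untreated naive cells, goes with a low value in part by construction, and these 2 statements are a description only. By role, the highest median differences were 0.47 for polymerases and primase and 0.39 for MCM2-7. The lowest were -0.61 for repair of broken forks, -0.52 for origin recognition and licensing, -0.39 for chromatin assembly and -0.28 for origin firing. These medians rest on few genes, which did not all run alike. For chromatin assembly they were Chaf1a at -0.94 and Chaf1b at 0.15 (-0.01 to 0.32). For repair they were Exo1 at -1.07, Brca1 at -0.61 and Brca2 at 0.25. Cdt1 in licensing, Dbf4 in origin firing (0.27) and Pola1 among the polymerases (-0.53) also differed in sign from the median of their role.

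**Figure D5:**
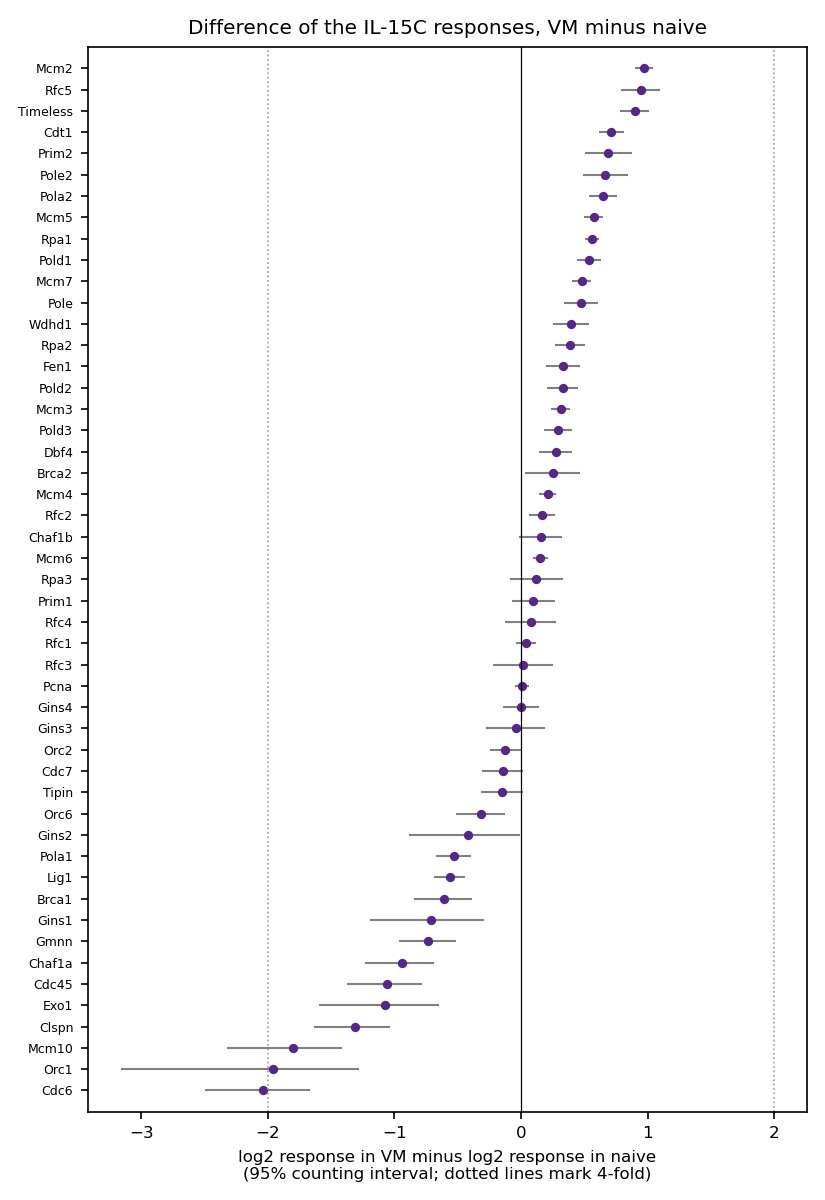
Difference of the IL-15C responses, VM minus naive, on the log2 scale with 95% counting intervals and dotted lines at 4-fold, genes sorted by value. Mcm2 is at the top with 0.97 and Cdc6 at the bottom with -2.03.

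Of 40 genes on a list of further origin, fork and checkpoint factors, all present in the table, 19 were higher in IL-15C VM and 13 in IL-15C naive cells than in their untreated counterparts, and none was lower. Of all genes compared, 8.6% were higher and 8.83% lower in VM cells, and 4.95% and 1.99% in naive cells. The median log2 ratios of the 40 were 0.91 in VM and 0.66 in naive cells. Among the highest in naive cells were Dna2, a nuclease-helicase, at 4.83, and Chek1, the gene of Chk1, at 4.67. The lowest were Atr, the kinase upstream of Chk1, at -0.28, Rad9a, part of the checkpoint clamp, at -0.21, and Orc4 at -0.16. Of the 6 ORC subunit genes, Orc2, Orc3, Orc4 and Orc5 did not pass the limit in either IL-15C comparison, and Orc1 and Orc6 passed it in both. Between the subsets, 5 of the 40 were higher in untreated VM than in untreated naive cells, beside 4.81% of all genes compared. In IL-15C VM against IL-15C naive cells 5 were higher and 1, Atrip, the partner of Atr, was lower at -1.25. Of all genes compared there, 6.52% were higher and 5.91% lower.

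Genes of mitosis, the step of the cycle after replication, were measured beside these. All 20 on the list were higher in both IL-15C comparisons, with median log2 ratios of 4.14 in VM and 5.67 in naive cells. Of all genes compared, 8.6% were higher in VM and 4.95% in naive cells, with medians of -0.04 and 0.02. Against untreated naive cells, 18 of the 20 were higher in untreated VM cells (median 3.25), beside 4.81% of all genes compared. Against IL-15C naive cells, 17 of the 20 were higher in IL-15C VM cells (median 1.81), beside 6.52% of all genes compared.

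Summed markers of dendritic cells, B cells, CD4 and regulatory T cells, and erythroid cells and platelets were highest in the untreated VM library. Those of NK and gamma-delta T cells and of macrophages were highest in the IL-15C VM library, but their single markers did not move alike. Cd68 was at 12.1 CPM in IL-15C VM and 3.71 CPM in untreated VM cells. The other macrophage markers, Csf1r and Lyz2, were counted as lower in IL-15C VM than in untreated VM cells. Klrb1c was at 20.7 CPM in IL-15C VM and 8.28 CPM in untreated VM cells. Tyrobp, Fcer1g, Trdc and Tcrg-C2 were not counted as higher or lower there. The part of such transcripts in the replication gene levels was not tested. The 4 dendritic cell markers measured, H2-Aa, H2-Ab1, Cd74 and Flt3, summed to 32.3 CPM in IL-15C VM and 180 CPM in untreated VM cells, and to 7.35 CPM in IL-15C naive and 4.66 CPM in untreated naive cells. The 5 B cell markers summed to 609 CPM in IL-15C VM and 644 CPM in untreated VM cells, and to 562 CPM in IL-15C naive and 487 CPM in untreated naive cells, most of it Ighm. Of these, Cd79a was at 1.12 CPM in IL-15C VM and 15.8 CPM in untreated VM cells. The 5 CD4 and regulatory T cell markers summed to 64.0 CPM in IL-15C VM and 79.3 CPM in untreated VM cells, and to 14.7 CPM in IL-15C naive and 17.8 CPM in untreated naive cells. Il2ra gave 46.7 CPM of the sum in IL-15C VM and 4.55 CPM in untreated VM cells. Zbtb7b, Foxp3, Ctla4 and Ikzf2 were each counted as lower in IL-15C VM than in untreated VM cells. The 5 NK and gamma-delta T cell markers summed to 38.5 CPM in IL-15C VM and 27.1 CPM in untreated VM cells, and to 10.01 CPM in IL-15C naive and 6.49 CPM in untreated naive cells. The 3 macrophage and the 3 erythroid and platelet markers stayed between 1.49 and 12.5 CPM in sum in every library. Genes without a read in one of the libraries, among them Cd4, Ms4a1, Ncr1 and Adgre1, were not analysed here.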

How the data were processed

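Libraries were made from RNA of RIN above the submitters' limit with a stranded poly(A) kit and read as pairs, per the labels' protocols. The submitters' processing notes list HISAT2 2.1.0 and StringTie 2.1.3b, FastQC 0.11.7 and Trimmomatic 0.38, R 4.2.2 and edgeR, SAMtools 1.9 and the build mm10, without saying what each was used for. The authors deposited whole-number counts of reads for each gene, and TPM values were deposited by the authors beside them, per the file headers. The deposited log2 columns hold TMM-scaled CPM and were recomputed from the counts within 5e-09. Another 14 columns with values of single samples stayed unused. The table lists genes with at least 1 read in each library.

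Counts were scaled by TMM (edgeR 4.0.16, R 4.3.3), and log2 ratios used a prior count of 2. Intervals are exact conditional binomial (Clopper-Pearson) at 95% for the 2 counts, and Poisson for the difference of responses. Without molecular identifiers, reads cannot be taken as independent molecules. Comparison required 20 reads or more over the libraries set against each other and 1 CPM in the highest. The script was tested on simulated counts. No test across mice was possible with 1 library per group, and the authors' own fold changes and p-values were not used. Alternatives were DESeq2 1.42.0 size factors, total-count and upper-quartile scaling, prior count 0.5, other filters and limits, and deposited TPM.

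The 49 genes, the role groups and the other lists were chosen with earlier results of these data known. Values in all libraries are given for the highest and lowest member of each role in the naive comparison, all MCM2-7 genes, and the 5 highest and 5 lowest differences of responses; from the other replication genes, the 3 highest and 3 lowest were taken, of which 1 is not reported here. Coordinates and promoters are from RefSeq (GRCm38.p6), in which all 49 Entrez IDs matched, and exon overlaps from GENCODE M21. Columns headed ctrl were read as the untreated groups.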

Additional observations from a re-analysis of the deposited data

Results flagged for a closer look

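For 2 genes the difference between the subsets ran opposite ways in IL-15C and in untreated mice, beyond counting error in each. For Pole2, a subunit of the leading-strand polymerase, the log2 ratio of VM over naive was 0.21 (0.12 to 0.31) in IL-15C cells and -0.45 (-0.60 to -0.30) in untreated cells, a difference of 0.67 (0.49 to 0.85). Its level was 41.7 CPM in IL-15C VM and 35.9 CPM in IL-15C naive cells, and 13.2 CPM in untreated VM and 18.1 CPM in untreated naive cells. For Timeless, of the fork protection complex, the ratio was 0.61 (0.56 to 0.67) in IL-15C cells and -0.28 (-0.38 to -0.18) in untreated cells, a difference of 0.90 (0.78 to 1.01). With 1 library per group these differences were not tested, and the intervals cover counting error only.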

How the results depend on the processing

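No called result reversed its direction under the alternatives run. Of members higher in IL-15C naive cells, 27 passed a 3-fold limit in place of 41, and the median ratio was 1.78 by deposited TPM in place of 2.02. Total-count scaling moved the median in IL-15C VM against untreated VM cells to 2.02 and that in IL-15C VM against IL-15C naive cells to 0.65. It shifted all genes of the first of these by -0.11 (log2), the largest shift of any scaling. In untreated VM against untreated naive cells 17 members passed at 1.5-fold and 7 at 3-fold, in place of 11. In IL-15C VM against IL-15C naive cells 27 passed at 1.5-fold and 0 at 3-fold, in place of 9. Total-count and upper-quartile scaling each left 6 of them at the 2-fold limit, and DESeq2 size factors 9. At 2-fold, 4 members had a smaller response in VM than in naive cells, in place of 0. The count over all genes at this limit was not taken, so these 4 cannot be set beside a general share. Without the 10 most counted genes the members held 0.528%, 0.165%, 0.855% and 0.218% of reads in IL-15C naive, untreated naive, IL-15C VM and untreated VM cells. Of summed TPM they held 0.351%, 0.123%, 0.587% and 0.157% in the same order. The rising order, an alternative added after seeing the data, held for 38 to 40 members under the other scalings. Over all genes, 726 were called in untreated VM against untreated naive cells and 467 with a minimum of 5 CPM. At 1.5-fold and 3-fold limits the calls over all genes numbered 2361 and 400 in the naive response (845 at 2-fold), 4354 and 904 in the VM response (2156), 1207 and 428 in untreated VM against naive cells (726), and 3264 and 577 in IL-15C VM against naive cells (1517). The cause of these moves was not tested. No paired analysis was possible because each group has 1 library, which also left no library to leave out. Depth limits Orc1 most, with 10 reads in untreated naive cells and an interval 1.97 log2 units wide.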
